A study of Arabidopsis thaliana with 36 samples.

Results

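The earliest transcript changes of wild-type seedlings in simulated shade were measured by comparing seedlings after 1 h of far-red enriched light with seedlings taken just before it. The comparison uses 6 of the 36 libraries of the series, the 3 labelled WT at 0 h and the 3 labelled WT at 1 h, and takes in all 32833 genes of the deposited table, of which 21562 had enough counts to be tested. All groups used here were whole 7-day-old Arabidopsis thaliana seedlings on plates without sucrose, raised at 22 °C in continuous white light of 20 to 25 µmol m-2 s-1 with a ratio of red to far-red light of about 1.58. Shade was the same white light with added far-red light, which lowered that ratio to about 0.02. The wild type was the accession Col-0, and the mutants hy5 and pif457 (pif4 pif5 pif7), which lack a light-signalling bZIP factor and a trio of growth-promoting bHLH factors, were sampled in the same way with 3 libraries at each time. Each replicate is described as a biological one, a harvest of whole seedlings. No group stayed in white light until 1 h, so elapsed time, handling and shade cannot be told apart. Whole seedlings mix all organs, and fewer cells of a type and less RNA per cell cannot be told apart either.

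Phytochromes are photoreceptors that switch between an inactive red-absorbing form and an active far-red-absorbing form. Active phytochrome B holds back the PHYTOCHROME INTERACTING FACTORS (PIFs), bHLH transcription factors. Light reflected or transmitted by leaves is rich in far-red light, inactivates phytochrome B and frees the PIFs, which bind G-box and related E-box elements near the genes they control. The elongation that follows is known to need auxin, and is shaped by brassinosteroid, gibberellin and ethylene.

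Depth was even, with 31849621 to 43678118 counts in each of the 6 libraries and 0.467% to 1.225% of them in rRNA genes. Levels are given in CPM, the usual depth-scaled count, with library totals adjusted by the TMM method, library by library in the order of replicates 1, 2 and 3. Changes are log2 fold changes of 1 h over 0 h with their standard error, and adjusted p-values come from the edgeR quasi-likelihood test with the Benjamini-Hochberg method over all genes tested. A gene was called higher or lower at an adjusted p under 0.05. The 0 h library of replicate 2 stood apart from the other 0 h libraries: on the first principal component, with 47.41% of the variance, it scored 16.4 against -40.11 and -55.83, while the 1 h libraries scored -16.84, 37.2 and 59.18. The mean log2 CPM of 13 flavonoid synthesis genes was 6.03, 3.65 and 5.72 at 0 h and 4.80, 5.48 and 3.76 at 1 h, so the low library of each time differed from its replicates and none of these genes was called. Root genes also varied, and the summed level of 12 root markers was 97.3 to 136 CPM at 0 h and 118 to 294 CPM at 1 h, with none called. Markers of green tissue summed to 34600 to 40900 CPM at 0 h and 31800 to 38600 CPM at 1 h, and all 5 of them had counts in every library. What part these differences between libraries had in the results was not tested.

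After 1 h in shade the seedlings held more RNA of the flowering-related gene FLP1, the bHLH gene BHLH87, the ethylene synthesis gene ACS8, the phosphatase gene APD7 and the photoreceptor gene PHYB. They held less RNA of the cryptochrome inhibitor gene BIC2, of PIF7 and of the floral repressor gene TEM1. In all 767 genes were higher and 354 lower, which is 5.2% of the genes tested in either direction, 3.56% higher and 1.64% lower. The changes of at least 2-fold were 241 higher and 70 lower. Of the called genes, 302 higher and 88 lower ones kept their call with each of the 6 libraries left out in turn, which is 1.4% and 0.408% of the genes tested and 1.81% in all, and the other calls depend on single libraries. Leaving out the 0 h library of replicate 2 raised the counts to 1635 higher and 849 lower, and leaving out any other library lowered them to between 385 and 456 higher and between 118 and 252 lower. A fit of the 6 libraries alone called 277 higher and 52 lower. DESeq2 called 848 higher and 735 lower, and RLE scaling in edgeR 652 higher and 463 lower, so the rises were 68.4% of the calls with TMM and edgeR, 53.6% with DESeq2 and 58.5% with RLE. The groups did not overlap for 20.9% of all genes tested, and the median log2 fold change over all of them was 0.02. Genes named below kept their call with each library left out and did not overlap between times unless stated otherwise. Both conditions were used in choosing genes. The fits with a library left out kept the libraries of the other groups. With only the 6 compared libraries fitted, 27 of 140 genes named with a wild-type change lost their call. Examples are EIN3 (adjusted p = 0.112), DVL10 (0.124), LSH3 (0.15) and BBX29 (0.165).

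**Figure D1:**
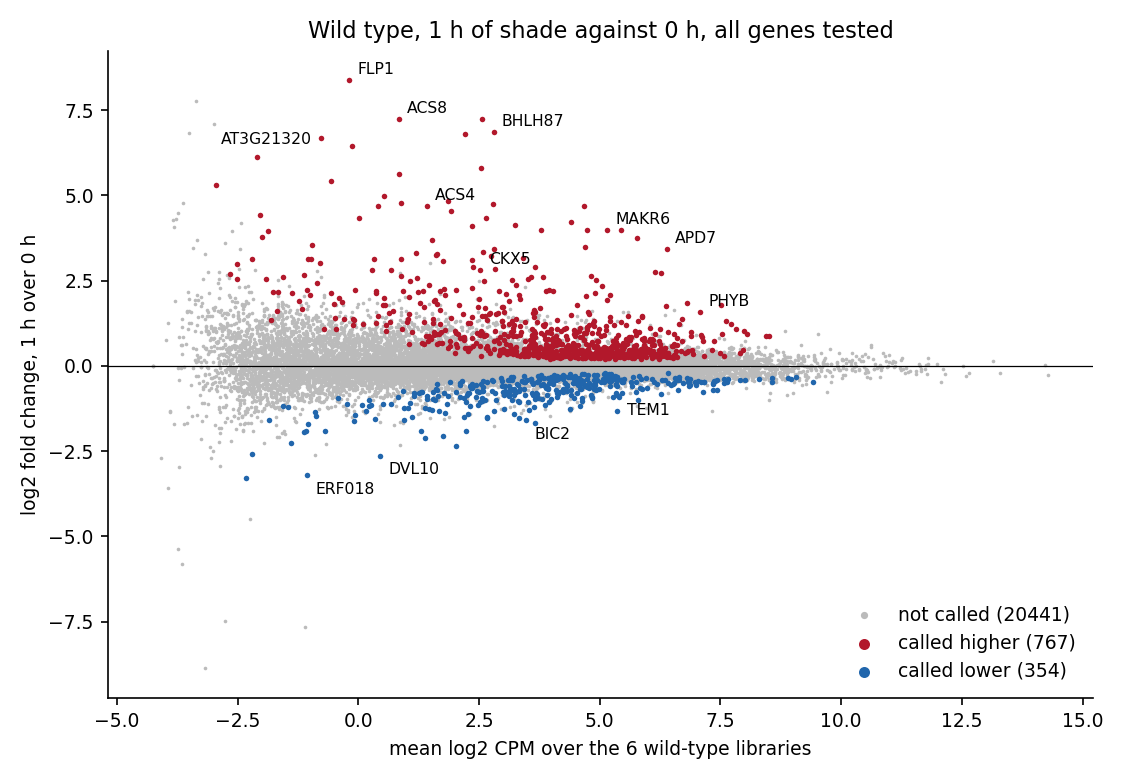
Each point is 1 of the 21562 genes tested, with its mean log2 CPM over the 6 wild-type libraries on the x axis and its log2 fold change of 1 h over 0 h on the y axis. Called genes are coloured (767 higher, 354 lower); called rises reach a log2 fold change of 8.38 (FLP1) and called falls -3.28.

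The usual shade genes, given here as a check of the treatment, rose steeply. PIL1 (AT2G46970), which encodes a bHLH protein and responds early to shade, was at 0.56, 0.302 and 0.384 CPM at 0 h and 53.8, 42.5 and 44.1 CPM at 1 h. All 3 libraries at 1 h were above all 3 at 0 h (6.79 ± 0.40, adjusted p = 2.83e-12). Also higher were ATHB2 (AT4G16780), a homeodomain gene, at 4.68 ± 0.16, adjusted p = 5.74e-18, HAT2 (AT5G47370) of the same class at 3.75 ± 0.19, adjusted p = 7.15e-14, the auxin-response repressor IAA29 (AT4G32280) at 7.24 ± 0.38, adjusted p = 2.03e-13 and the auxin synthesis gene YUC9 (AT1G04180) at 5.81 ± 0.43, adjusted p = 1.12e-10. The lists of shade markers, auxin genes and SAUR genes together held 58 of the 1121 called genes. The other 1063 are the subject of what follows, and 901 of them are in none of the 76 lists of pathways and families examined.

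Short stretches upstream of 5 risen genes of different roles are shown because each holds a PIF-type element in the last 250 bases before the annotated start. The genes are PHYB (AT2G18790), the photoreceptor gene; BEE1 (AT1G18400), a bHLH growth regulator; ACS8 (AT4G37770), an ethylene synthesis gene; LNG1 (AT5G15580), which promotes lengthwise cell growth; and AT3G21320, annotated as an EARLY FLOWERING protein. Sequences were read from the RefSeq assembly TAIR10.1 on the strand of each gene, 5′ to 3′, at chr2:8139506-8139755 (plus strand), chr1:6331148-6331397 (plus), chr4:17751829-17752078 (plus), chr5:5072493-5072742 (minus) and chr3:7501889-7502138 (minus). Capitals mark CACGTG, the G-box, and CACATG or its reverse complement CATGTG, an E-box that PIFs also bind. Matches begin 146 and 111 bases before the start in PHYB, 136 in BEE1, 15 in ACS8, 72 in LNG1 and 132 in AT3G21320.
PHYB: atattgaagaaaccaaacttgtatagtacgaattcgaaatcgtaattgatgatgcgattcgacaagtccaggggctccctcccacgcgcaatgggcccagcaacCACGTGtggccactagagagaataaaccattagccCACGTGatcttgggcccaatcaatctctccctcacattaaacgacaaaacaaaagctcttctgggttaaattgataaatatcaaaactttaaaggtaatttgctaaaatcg
BEE1: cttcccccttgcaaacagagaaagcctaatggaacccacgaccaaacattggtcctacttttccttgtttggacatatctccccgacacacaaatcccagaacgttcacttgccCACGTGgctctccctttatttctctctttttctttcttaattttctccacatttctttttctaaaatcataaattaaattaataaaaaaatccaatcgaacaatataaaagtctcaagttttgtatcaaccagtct
ACS8: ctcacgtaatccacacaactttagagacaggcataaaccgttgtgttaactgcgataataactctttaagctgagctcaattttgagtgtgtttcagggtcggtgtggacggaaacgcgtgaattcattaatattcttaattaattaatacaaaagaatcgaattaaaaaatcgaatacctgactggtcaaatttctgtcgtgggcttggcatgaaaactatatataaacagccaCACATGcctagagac
LNG1: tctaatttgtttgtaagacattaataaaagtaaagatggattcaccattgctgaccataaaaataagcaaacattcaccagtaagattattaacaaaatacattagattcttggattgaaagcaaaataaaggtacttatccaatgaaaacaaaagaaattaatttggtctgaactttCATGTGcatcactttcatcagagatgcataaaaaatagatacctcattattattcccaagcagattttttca
AT3G21320: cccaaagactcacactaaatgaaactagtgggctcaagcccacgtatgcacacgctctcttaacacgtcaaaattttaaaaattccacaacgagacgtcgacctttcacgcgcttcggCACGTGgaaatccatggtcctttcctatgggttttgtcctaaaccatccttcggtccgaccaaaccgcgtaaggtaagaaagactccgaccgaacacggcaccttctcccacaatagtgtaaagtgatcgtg

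Over all promoters, windows from 250 bases before to 50 after the start were searched on both strands for CACGTG, for CACATG or CATGTG, and for TGTCTC or GAGACA, a core of auxin response elements. CACATG and CATGTG are reverse complements that can overlap each other, and a window was counted once however many matches it held. CACATG or CATGTG was in 13.0% of 21430 windows of tested genes, in 19.3% of the 767 called higher and in 30.7% of the 241 that rose at least 2-fold. It was in 15.9% of the 352 lower genes with a window and in 16.2% of the 68 that fell at least 2-fold. The G-box was in 8.67% of all windows, 14.1% of those of the genes that rose at least 2-fold and 8.82% of those of the genes that fell at least 2-fold. The auxin element was in 13.8% of all windows, 19.5% of those of the 2-fold risers and 23.5% of those of the 2-fold fallers. Of the motifs searched, the E-box had the largest step from all genes to the 2-fold risers, and a smaller step to the fallers. Of the 241 wild-type genes that rose at least 2-fold, 202 were also called higher in hy5, whose libraries the wild-type comparison does not use. The risen promoters of both genotypes are therefore partly the same, and their shares are not separate evidence. Among the genes that rose at least 2-fold in hy5, the E-box was in 22.4% of windows and the G-box in 10.7%. These shares describe letters in a short window and were not tested. BHLH87, FLP1 and BIC2, described below, had no G-box and no E-box of this kind in that window.

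**Figure D2:**
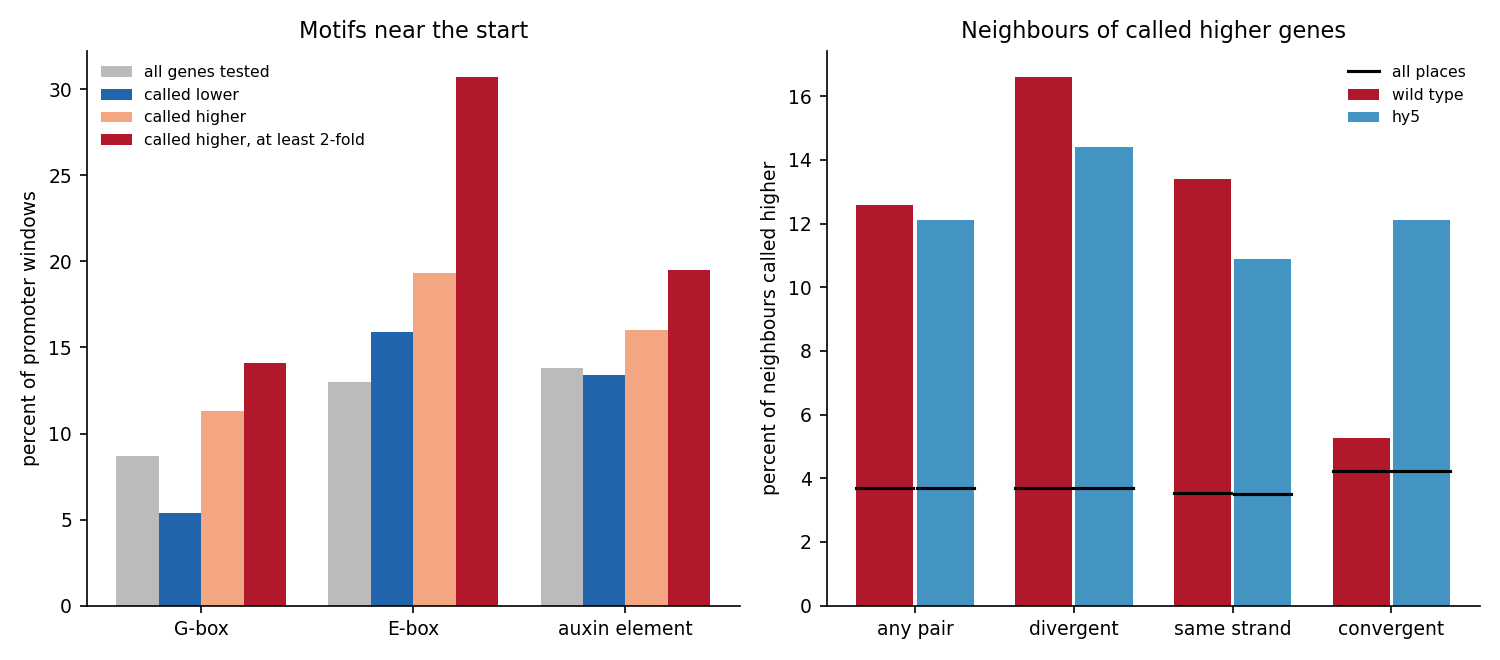
Left, the share in percent of promoter windows that hold each motif among all genes tested, genes called lower, genes called higher and genes higher at least 2-fold (the E-box goes from 13.0% to 30.7%). Right, the share in percent of the neighbours of called higher genes that are called higher too, in the wild type and hy5 by orientation of the pair, beside the share of all places called higher. The lowest wild-type bar is that of convergent pairs (5.28%).

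Among the light receptors and their partners, a single phytochrome gene stood out. PHYB was at 72.8, 81.9 and 80.0 CPM at 0 h and 221, 220.0 and 259 CPM at 1 h. Every 1 h library was more than 2-fold above every 0 h library (1.58 ± 0.15, adjusted p = 1.01e-08). Of the other phytochrome genes, PHYA (AT1G09570) (0.93 ± 0.25, adjusted p = 0.0225) and PHYD (AT4G16250) (0.41 ± 0.10, adjusted p = 0.0155) were called but lost their call in 4 and 5 of the 6 fits with a library left out. PHYC (AT5G35840) was at 0.08 ± 0.09 and PHYE (AT4G18130) at 0.00 ± 0.09, with adjusted p of 0.684 and 0.984. FHL (AT5G02200), which helps phytochrome A enter the nucleus, was called at 1.78 ± 0.47, adjusted p = 0.0237, with its call kept in 3 of the 6 fits. Its homologue FHY1 (AT2G37678) was at 0.18 ± 0.13, adjusted p = 0.433. In the list of phytochrome nuclear import and partner genes, 1 of 9 tested genes was called higher and 2 lower. Of these calls only 1, a fall, was kept with each library left out. PHOT1 (AT3G45780), a blue-light receptor gene, was called higher with a log2 fold change of 1.09, but not with each library left out. Of 13 photoreceptor genes tested 4 were called higher and none lower, and only PHYB kept its call with each library left out. The blue-light receptor genes CRY1 (AT4G08920) and CRY2 (AT1G04400) were at 0.11 ± 0.13 and 0.16 ± 0.11 and did not pass (adjusted p = 0.648 and 0.396).

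The inhibitors of those cryptochromes fell. BIC2 (AT3G44450), whose protein blocks photoactivation of cryptochrome, was at 22.5, 15.1 and 21.0 CPM at 0 h and 5.44, 5.66 and 8.30 CPM at 1 h. All 3 libraries at 1 h were below all 3 at 0 h (-1.59 ± 0.18, adjusted p = 3.8e-07). BIC1 (AT3G52740) fell as well, from 11.3, 9.71 and 9.48 CPM to 3.94, 5.63 and 5.63 CPM (-1.0 ± 0.20, adjusted p = 0.00248). The phytochrome kinase substrates, membrane proteins known from phototropism, split: PKS4 (AT5G04190) (2.09 ± 0.25, adjusted p = 1.12e-06) and PKS2 (AT1G14280) (0.90 ± 0.19, adjusted p = 0.00377) rose, and PKS1 (AT2G02950) (-0.80 ± 0.15, adjusted p = 0.000673) and PKS3 (AT1G18810) (-0.84 ± 0.19, adjusted p = 0.00626) fell. So all 4 members were called, in equal numbers each way.

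Of 9 PIF family genes tested, 1 rose and 2 fell. PIF7 (AT5G61270), the PIF known for the shade response of seedlings, was at 20.1, 15.8 and 20.9 CPM at 0 h and 8.08, 7.02 and 9.62 CPM at 1 h. It was lower in every 1 h library (-1.20 ± 0.22, adjusted p = 0.00081). PIF1 (AT2G20180) was called lower at -0.48 ± 0.12 (adjusted p = 0.02), a call kept in 2 of the 6 fits, and PIF6 (AT3G62090), also in the shade marker list, rose at 1.73 ± 0.39, adjusted p = 0.00618. PIF4 (AT2G43010) at -0.63 ± 0.20 and PIF5 (AT3G59060) at -0.34 ± 0.21 did not pass (adjusted p = 0.0668 and 0.358). HY5 (AT5G11260), the bZIP factor that promotes development in light, fell at -0.65 ± 0.13, adjusted p = 0.00243, while COP1 (AT2G32950), the ubiquitin ligase that targets it, was at 0.07 ± 0.09 (adjusted p = 0.706). In the B-box family, zinc finger regulators of light responses, 3 of 28 tested genes rose and 4 fell. COL5 (AT5G57660) (1.42 ± 0.21, adjusted p = 2.95e-05) and BBX29 (AT5G54470) (1.23 ± 0.25, adjusted p = 0.00214) rose, and BBX18 (AT2G21320) (-1.27 ± 0.26, adjusted p = 0.00235) and LZF1 (AT1G78600) (-0.86 ± 0.21, adjusted p = 0.0112), a positive factor of light development, fell.

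The largest rise of a transcription factor outside the usual lists was that of BHLH87 (AT3G21330), a bHLH gene. Its libraries were at 0.764, 0.55 and 0.561 CPM at 0 h and 71.8, 71.4 and 74.7 CPM at 1 h, a change from near 0 to a level that was alike in all 3 replicates (6.85 ± 0.59, adjusted p = 2.57e-09). HEC1 (AT5G67060), a bHLH gene of gynoecium and meristem development that was chosen after its values were seen, rose at 1.74 ± 0.25, adjusted p = 2.93e-05. BEE1, which promotes growth downstream of brassinosteroid, was at 5.96, 3.49 and 4.84 CPM at 0 h and 30.7, 23.2 and 30.6 CPM at 1 h, with the groups far apart (2.56 ± 0.37, adjusted p = 1.97e-05). Of 10 growth-activating bHLH genes, 5 rose and none was called lower, among them BIM1 (AT5G08130) (1.84 ± 0.15, adjusted p = 1.18e-09), counted with the shade markers too, BIM2 (AT1G69010) (0.87 ± 0.10, adjusted p = 6.14e-07) and BEE2 (AT4G36540) (0.83 ± 0.17, adjusted p = 0.00262). Their median log2 fold change was 0.48, beside 0.02 over all genes.

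HLH proteins that do not bind DNA tune these factors by pairing with them, and 9 of 16 tested genes rose and 1 fell (median 0.91). Some of them are in the shade marker list as well. Both sides of the known antagonism were among the risen genes: PRE6 (AT1G26945) (2.23 ± 0.15, adjusted p = 4.01e-11) and PRE2 (AT5G15160) (1.05 ± 0.20, adjusted p = 0.0015), which favour growth, and IBH1 (AT2G43060) (1.31 ± 0.19, adjusted p = 2.46e-05) and BHLH149 (AT1G09250) (1.1 ± 0.10, adjusted p = 6.72e-09), of the class that opposes it. AIF1 (AT3G05800), which pairs with PRE-type proteins and restrains growth, fell at -0.98 ± 0.12, adjusted p = 9.2e-07.

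**Figure D3:**
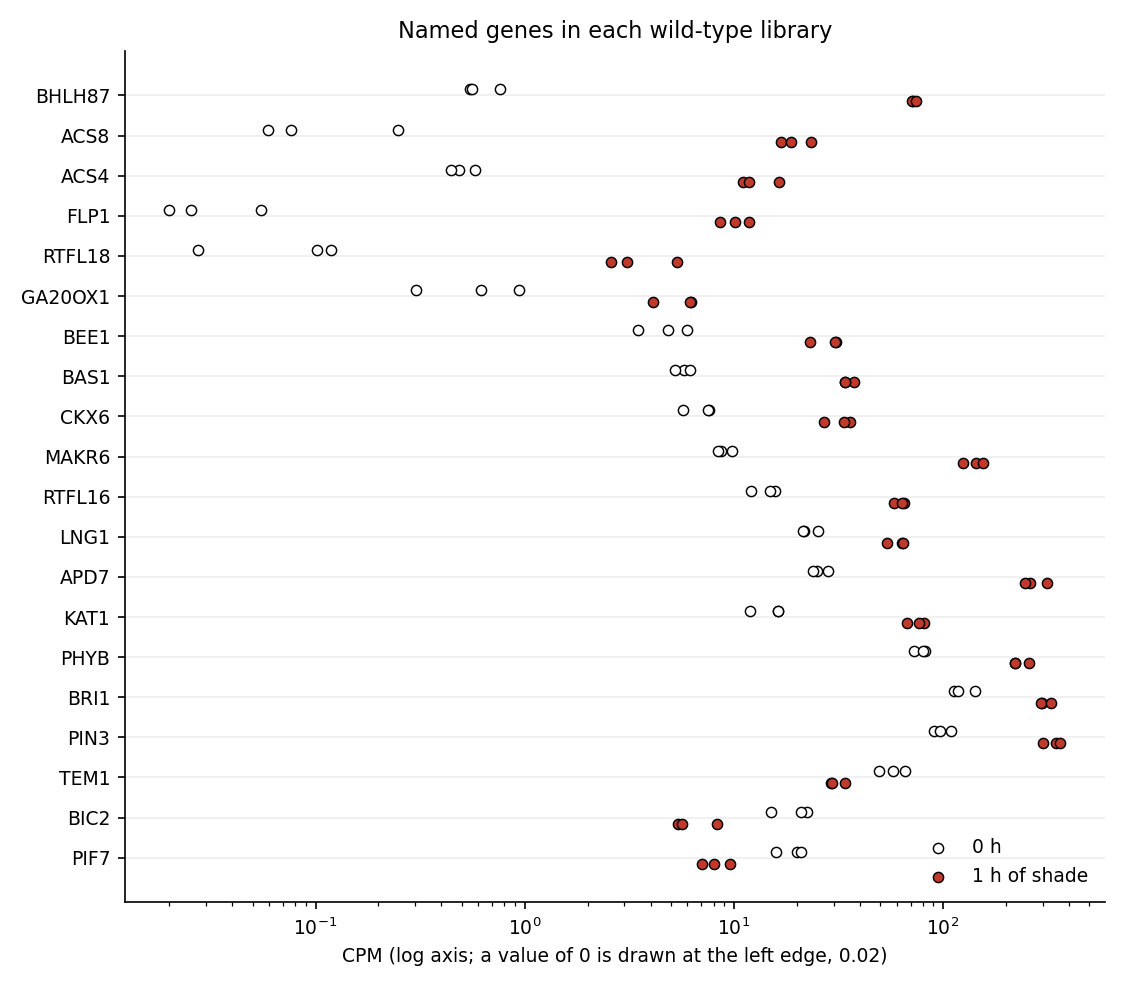
CPM of 20 named genes on a log axis in each of the 3 libraries at 0 h (open circles) and the 3 at 1 h (filled circles), 1 row per gene; values of 0 are drawn at the left edge. In all 20 genes the libraries of the 2 times do not overlap, from BHLH87 (0.55 to 0.764 against 71.4 to 74.7 CPM) to PHYB (72.8 to 81.9 against 220.0 to 259 CPM). Absence of overlap was among the conditions for choosing genes, so it is not a separate result.

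Ethylene synthesis was among the hormone groups with the largest single rises. ACC synthases make the ethylene precursor and are the committed step of the pathway. ACS8 was at 0.0764, 0.247 and 0.059 CPM at 0 h and 16.9, 23.3 and 18.8 CPM at 1 h. It was near its detection limit in all 3 libraries at 0 h, with 3, 9 and 2 counts, and had 574, 856 and 796 counts at 1 h (7.23 ± 0.82, adjusted p = 4.14e-07). ACS4 (AT2G22810) was at 0.484, 0.577 and 0.443 CPM at 0 h and 11.1, 11.8 and 16.4 CPM at 1 h (4.69 ± 0.51, adjusted p = 1.83e-07), again with no overlap. ACS5 (AT5G65800) (3.14 ± 0.69, adjusted p = 0.00516) and ACS6 (AT4G11280) (1.34 ± 0.24, adjusted p = 0.000525) rose too. In all 7 of 17 tested genes of the list rose and none was called lower, with a median of 0.44. ACS7 (AT4G26200) (-0.26 ± 0.49, adjusted p = 0.805) was among those that did not pass. The list also holds AT2G05710, an aconitase gene entered by its symbol ACO3. Further down the pathway 6 of 16 signalling genes rose, and EIN3 (AT3G20770) (0.62 ± 0.13, adjusted p = 0.00351) and EIL1 (AT2G27050) (0.51 ± 0.07, adjusted p = 1.26e-05), the main transcription factors of the ethylene response, were among them. The feedback genes EBF1 (AT2G25490) (0.18 ± 0.12, adjusted p = 0.409) and EBF2 (AT5G25350) (0.24 ± 0.11, adjusted p = 0.216), which encode F-box proteins that remove EIN3, did not pass at 1 h.

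Brassinosteroid genes moved on the side of synthesis (4 higher and 1 lower of 12) and of inactivation (3 higher and 2 lower of 8). DWF4 (AT3G50660), a rate-limiting P450 of synthesis, was at 11.4, 14.1 and 12.7 CPM at 0 h and 22.9, 23.1 and 23.4 CPM at 1 h; the replicates at 1 h were nearly equal and all above 0 h (0.86 ± 0.09, adjusted p = 3.17e-08). CYP85A2 (AT3G30180) (0.99 ± 0.15, adjusted p = 4.08e-05) and CPD (AT5G05690) (0.89 ± 0.16, adjusted p = 0.00066) rose, and CYP85A1 (AT5G38970), the close relative of CYP85A2, was called lower (-1.01 ± 0.25, adjusted p = 0.0134, kept in 3 of the 6 fits). BAS1 (AT2G26710), a P450 that inactivates brassinosteroids, was at 5.75, 6.16 and 5.26 CPM at 0 h and 37.6, 33.9 and 34.0 CPM at 1 h. It rose more than any synthesis gene named here (2.62 ± 0.16, adjusted p = 2.83e-12). BEN1 (AT2G45400), a reductase-like gene of the same function, rose at 0.67 ± 0.14, adjusted p = 0.00296, whereas the glucosyltransferase genes UGT73C6 (AT2G36790) (-1.31 ± 0.20, adjusted p = 7.34e-05) and UGT73C5 (AT2G36800) (-0.77 ± 0.18, adjusted p = 0.0111, kept in 4 of the 6 fits) fell. These UGT73C genes are closely similar neighbours, so how reads were shared between them is uncertain. BRI1 (AT4G39400), the receptor, was at 113, 142 and 118 CPM at 0 h and 298, 295 and 329.7 CPM at 1 h, clear of the 0 h libraries in every replicate (1.31 ± 0.11, adjusted p = 1.21e-09). Of 14 signalling genes 4 rose and none was called lower, and BEH4 (AT1G78700) (0.93 ± 0.12, adjusted p = 4.13e-06) and BEH2 (AT4G36780) (0.55 ± 0.10, adjusted p = 0.000608), relatives of the transcription factor gene BZR1 (AT1G75080), were called while BZR1 itself was at 0.23 ± 0.07 (adjusted p = 0.0695).

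Gibberellin genes rose among the synthesis genes (3 of 10), with none called lower. In a list of receptors, DELLA repressors, SLY1, SNE and GASA peptide genes 6 of 14 rose, again with none called lower. GA20OX1 (AT4G25420), an oxidase late in synthesis, was at 0.942, 0.302 and 0.62 CPM at 0 h and 6.26, 6.20 and 4.09 CPM at 1 h, with every 1 h library well above every 0 h library (3.14 ± 0.40, adjusted p = 3.48e-06). GA20OX2 (AT5G51810) (2.17 ± 0.29, adjusted p = 9.03e-06) rose as well, and GA3OX1 (AT1G15550), which makes the active hormone, did not pass (0.43 ± 0.25, adjusted p = 0.33). GAI (AT1G14920), a DELLA repressor of gibberellin responses, was at 42.4, 46.9 and 44.6 CPM at 0 h and 95.7, 103 and 91.6 CPM at 1 h. Every 1 h library was above every 0 h library, and the mean was 2.17-fold higher (1.12 ± 0.11, adjusted p = 3.13e-08). RGL3 (AT5G17490), another DELLA gene, rose at 0.94 ± 0.16, adjusted p = 0.000418, RGL2 (AT3G03450) was at -0.02 ± 0.17 (adjusted p = 0.972), and GASA6 (AT1G74670), a small peptide gene induced by gibberellin, rose at 1.47 ± 0.27, adjusted p = 0.000701. Cytokinin oxidases, which degrade cytokinin, had 2 higher and 1 lower of 7 tested genes, the higher being CKX6 (AT3G63440), at 7.59, 5.69 and 7.56 CPM at 0 h and 35.9, 33.6 and 27.0 CPM at 1 h (2.21 ± 0.19, adjusted p = 2.82e-09), and CKX5 (AT1G75450) (2.81 ± 0.33, adjusted p = 8.15e-07). None of the 9 type-A response regulators tested, which cytokinin induces, was called (median 0.14).

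Auxin carriers rose beside the auxin genes of the usual lists. PIN3 (AT1G70940), an efflux carrier that redirects auxin in shaded stems, was at 90.2, 109.5 and 96.7 CPM at 0 h and 347, 302 and 364 CPM at 1 h. The times were far apart, with a mean level 3.42-fold higher (1.77 ± 0.16, adjusted p = 9.43e-09). The influx carrier AUX1 (AT2G38120) (1.37 ± 0.15, adjusted p = 1.25e-07), the efflux carriers PIN7 (AT1G23080) (1.01 ± 0.15, adjusted p = 3.04e-05) and PIN4 (AT2G01420) (0.74 ± 0.15, adjusted p = 0.00287), and ABCB19 (AT3G28860) (0.83 ± 0.12, adjusted p = 2.46e-05), a transporter of the main stem flow, rose too. In a list of auxin carriers, kinases that act on them and phototropism proteins, 7 of 29 tested genes rose and none was called lower (median 0.28). LAX3 (AT1G77690) was at 0.09 ± 0.26 and LAX1 (AT5G01240) at -0.22 ± 0.11 (adjusted p = 0.888 and 0.248). The mean log2 CPM of 22 root genes, of which none was called, was 2.05, 1.54 and 1.17 at 0 h and 1.52, 2.63 and 2.98 at 1 h, and their part in the carriers' rise was not tested. AT1G67900, an NPH3 family protein related to phototropism factors, was at 32.1, 20.5 and 30.8 CPM at 0 h and 209, 183 and 167 CPM at 1 h (2.75 ± 0.20, adjusted p = 1.44e-10), and was chosen after its values were seen. Of 30 NPH3 family genes 5 rose and 1 fell, so the rest of that family mostly did not pass.

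**Figure D4:**
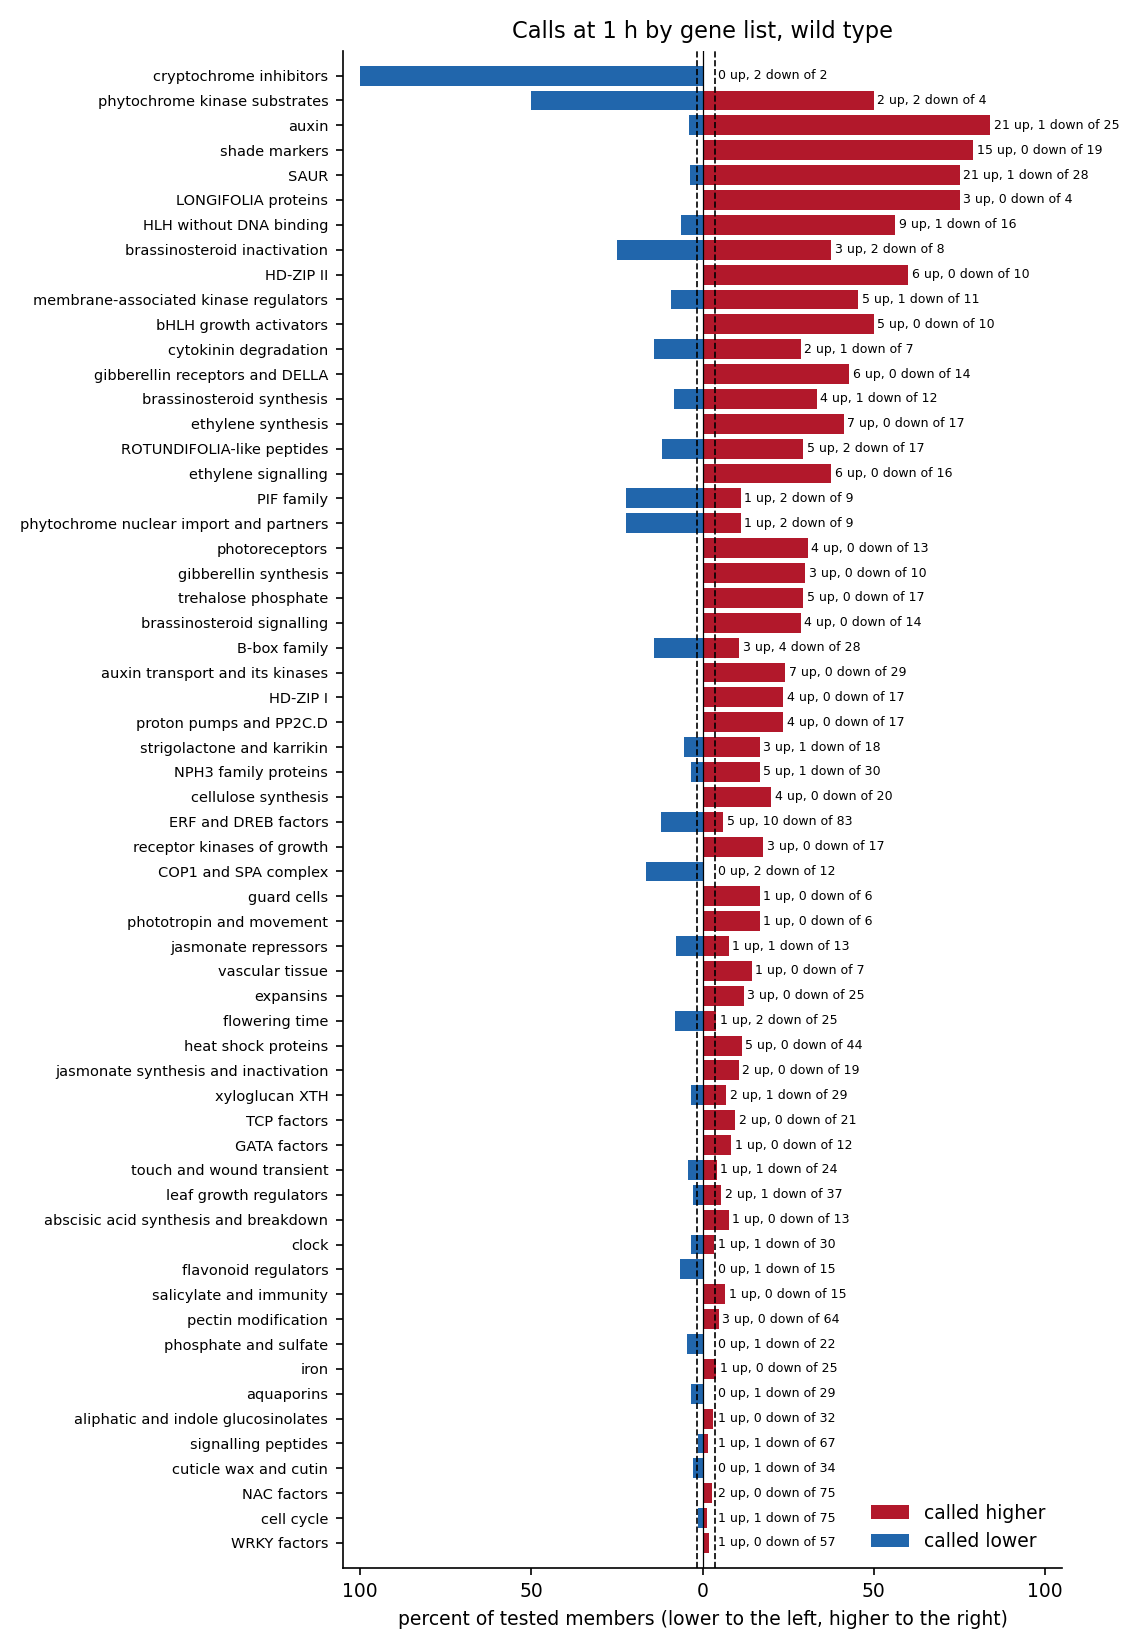
Number of genes called higher (bars to the right) and lower (bars to the left) in each gene list with at least 1 call, as a percent of the members tested, in order of the share called, with the counts beside the bars. Usual shade and auxin lists lie near the top together with cryptochrome inhibitors (both members lower) and phytochrome kinase substrates (2 higher, 2 lower of 4). The dashed lines mark the share of all 21562 genes called higher (3.56%) and lower (1.64%).

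Regulators of the acid growth of cell walls changed at the level of the phosphatase and of the pump. APD7 (AT5G02760), a PP2C.D phosphatase that switches off plasma membrane proton pumps and is itself inhibited by SAUR proteins, was at 28.1, 24.9 and 23.9 CPM at 0 h and 262, 246 and 315 CPM at 1 h. The mean level was 10.7-fold higher and the times were far apart (3.42 ± 0.24, adjusted p = 4.81e-11). APD9 (AT5G66080) of the same clade rose at 2.5 ± 0.26, adjusted p = 8.73e-08, and the pump gene HA2 (AT4G30190) was called higher (0.87 ± 0.25, adjusted p = 0.0353) but its groups overlapped and its call was kept in 2 of the 6 fits. KAT1 (AT5G46240), an inward potassium channel best known from guard cells, was at 16.3, 12 and 16.2 CPM at 0 h and 81.6, 67.3 and 77.2 CPM at 1 h (2.34 ± 0.20, adjusted p = 2.5e-09). The other 5 guard cell markers summed to 42.9, 41.6 and 40.8 CPM at 0 h and 53, 36.5 and 35.2 CPM at 1 h, and none of them was called. In the wall itself, EXLA1 (AT3G45970) (1.36 ± 0.20, adjusted p = 2.41e-05), EXLA2 (AT4G38400) (1.11 ± 0.17, adjusted p = 7.13e-05) and EXPA8 (AT2G40610) (1.3 ± 0.25, adjusted p = 0.00153) were the 3 of 25 expansin genes that rose, the median over all 25 was -0.08, and of 29 XTH genes 2 rose and 1 fell.

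A family of small signalling peptides, noticed after the values were seen, held some of the largest changes outside the usual lists. The ROTUNDIFOLIA-like or DEVIL peptides are short plant proteins, and overproducing them is known to shorten organs in Arabidopsis. RTFL16 (AT3G25717) was at 15.7, 15 and 12.1 CPM at 0 h and 64.9, 58.6 and 63.6 CPM at 1 h (2.13 ± 0.16, adjusted p = 1.83e-10). RTFL18 (AT5G16023), thinly expressed at first, was at 0.102, 0.0275 and 0.118 CPM at 0 h and 5.38, 3.1 and 2.58 CPM at 1 h, from 9 counts in all at 0 h to 406 at 1 h (5.43 ± 0.83, adjusted p = 4.97e-05). RTFL13 (AT3G23635) (3.55 ± 0.47, adjusted p = 5.48e-06), DVL3 (AT1G67265) (3.79 ± 0.65, adjusted p = 0.000294) and RTFL17 (AT1G13245) (1.1 ± 0.16, adjusted p = 1.69e-05) rose as well. DVL10 (AT4G13395) went the other way, at 3.87, 1.13 and 6.17 CPM at 0 h and 0.411, 0.49 and 0.875 CPM at 1 h (-2.63 ± 0.55, adjusted p = 0.00316), with the lowest 0 h library just above the highest 1 h library. Over the 17 members tested 5 rose, 2 fell and the median was 0.24, so the family did not move as a whole.

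Another family seen in the same way is that of the membrane-associated kinase regulators, relatives of the protein that inhibits BRI1. MAKR6 (AT5G52900) was at 9.83, 8.69 and 8.39 CPM at 0 h and 145, 125 and 155 CPM at 1 h, with a mean 15.8-fold higher (3.98 ± 0.28, adjusted p = 6.1e-11). AT1G53163 (1.77 ± 0.24, adjusted p = 7.62e-06), AT1G67050 (1.19 ± 0.14, adjusted p = 9.85e-07) and MAKR5 (AT5G52870) (1.07 ± 0.14, adjusted p = 4.56e-06) rose too, and of 11 genes tested 5 rose and 1 fell. LNG1 was at 21.6, 25.2 and 21.5 CPM at 0 h and 64.1, 64.7 and 53.9 CPM at 1 h, and LNG2 (AT3G02170) rose with it (1.42 ± 0.12, adjusted p = 8.65e-10 and 1.19 ± 0.09, adjusted p = 6.39e-11). Both promote lengthwise cell growth in leaves, and both were chosen after their values were seen.

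Genes outside these groups that rose included SOT14 (AT5G07000) (2.64 ± 0.26, adjusted p = 2.16e-08), a sulfotransferase gene; TZF5 (AT5G44260) (2.37 ± 0.34, adjusted p = 2.43e-05), a tandem zinc finger gene; PUB18 (AT1G10560) (2.36 ± 0.44, adjusted p = 0.000992), a U-box ubiquitin ligase; PLIP2 (AT1G02660) (1.97 ± 0.23, adjusted p = 6.15e-07), a plastid lipase; and CYP78A7 (AT5G09970) (1.90 ± 0.29, adjusted p = 4.6e-05), a P450 of the class that controls organ size. A relative of the last gene, CYP78A9 (AT3G61880), fell (-1.28 ± 0.21, adjusted p = 0.000196). Genes without a symbol that rose included AT5G66580, an uncharacterised protein (4.21 ± 0.24, adjusted p = 1.01e-12), AT5G12050, annotated as a rho GTPase-activating protein (3.98 ± 0.26, adjusted p = 2.02e-11), and AT5G62280, of a family of unknown function (3.97 ± 0.25, adjusted p = 9.95e-12).

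Flowering and branching genes were few but included the largest rise of all. FLP1 (AT4G31380), which encodes a small protein related to FLOWERING PROMOTING FACTOR 1, had 1, 2 and 0 counts at 0 h and 291, 374 and 501 at 1 h. The ratio of the summed counts was 376, with a 95% exact counting interval of 128 to 1830, and the fitted change was 8.38 ± 0.66, adjusted p = 4.02e-10. Counting intervals cover counting error only. The floral repressors TEM1 (AT1G25560), at 58.0, 49.7 and 65.5 CPM at 0 h and 29.1, 29.5 and 34.0 CPM at 1 h (-0.90 ± 0.14, adjusted p = 4.32e-05), and SMZ (AT3G54990) (-0.85 ± 0.11, adjusted p = 3.04e-06) fell, and FT (AT1G65480), the gene they repress, did not pass at 1 h (0.88 ± 0.37, adjusted p = 0.165). BRC2 (AT1G68800), a TCP factor that represses branching, rose at 2.98 ± 0.63, adjusted p = 0.00368 from 4 counts in all to 35, so its size is poorly known. CDF5 (AT1G69570), a DOF factor under clock control, rose at 1.68 ± 0.16, adjusted p = 1.25e-08, whereas LHY (AT1G01060) (0.19 ± 0.43) and CCA1 (AT2G46830) (-0.15 ± 0.35) of the clock itself did not pass (adjusted p = 0.849 for both).

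The genes that fell were spread over many functions. Beside BIC2 they included PDX1L4 (AT2G38210) (-1.51 ± 0.27, adjusted p = 0.000559), annotated as a PDX1-like protein, GATA7 (AT4G36240) (-1.32 ± 0.17, adjusted p = 5.84e-06), a GATA factor, LTP7 (AT2G15050) (-1.31 ± 0.12, adjusted p = 1.29e-08), a lipid transfer protein, and WAVH2 (AT5G65683), a RING finger protein. WAVH2 was at 32.9, 32.4 and 32.1 CPM at 0 h and 11.2, 14.9 and 14.3 CPM at 1 h, with replicates close together at both times (-1.27 ± 0.11, adjusted p = 2.27e-09). Others were ERF094 (AT1G06160) (-1.23 ± 0.20, adjusted p = 0.000186), a factor of jasmonate and ethylene defence responses, LSH3 (AT2G31160) (-1.15 ± 0.25, adjusted p = 0.00392), of a family with a role in organ boundaries, FLZ13 (AT1G74940) (-1.07 ± 0.14, adjusted p = 3.92e-06) and the peptide gene CLE16 (AT2G01505) (-1.05 ± 0.22, adjusted p = 0.00293). ERF and DREB factors, a large list, had the most falls by number: 10 of 83 fell and 5 rose. Of the 10 falls, 5 kept their call with each library left out. Smaller lists had larger shares, such as 2 of 2 cryptochrome inhibitor genes. The list was drawn by symbol and also holds CBF5 (AT3G57150), which is of another family. Among the falls were ERF018 (AT1G74930) (-3.20 ± 0.57, adjusted p = 0.000494), ERF010 (AT5G67190) (-0.73 ± 0.13, adjusted p = 0.000486) and ERF15 (AT2G31230) (-0.91 ± 0.18, adjusted p = 0.00196). ERF018 had few counts, 45, 13 and 99 at 0 h and 3, 6 and 9 at 1 h. With only the 6 compared libraries fitted in edgeR, ERF018, ERF010 and ERF15 lost their call (adjusted p = 0.142, 0.0665 and 0.0656). Genes without a symbol that fell included AT4G27657, uncharacterised (-2.35 ± 0.40, adjusted p = 0.000283), AT4G29110 (-2.11 ± 0.25, adjusted p = 9.85e-07) and AT2G30230 (-2.07 ± 0.23, adjusted p = 2.3e-07), annotated as a lumazine synthase.

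Much of primary metabolism gave no call at 1 h, but 5 of 17 tested genes of a trehalose phosphate list were called higher and none lower (median 0.37). Of those 5, 2 kept their call with each library left out. Of the 76 lists, 20 held no called gene, among them 41 genes listed as photosystem subunits (median -0.08), 19 antenna proteins (median -0.09), 25 genes of chlorophyll synthesis (0.09), 23 of carotenoid synthesis (0.14), 18 of starch (0.06), 25 sugar transporters (-0.01) and 26 of abscisic acid signalling (-0.06). The photosystem list was drawn by symbol and also holds PSAT, PSAT1 and PSAT2, which are not photosystem subunits. In the flavonoid synthesis list the single log2 fold changes ran from -1.03 to -0.01, and in the antenna list from -0.73 to 0.19. A gene that misses the threshold is not shown to be unchanged. Touch and wound genes, which handling of the plates could move, had 1 gene called higher and 1 lower of 24.

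The same contrast in the libraries of the mutants, which the wild-type comparison does not use, showed which changes recurred. At 0 h HY5 was at 18.6 ± 2.11 CPM in the wild type and 5.21 ± 0.0734 in hy5 (mean ± SD, n = 3). PIF5 and PIF7 were at 38.6 ± 6.71 and 19.0 ± 2.74 CPM in the wild type and at 2.00 ± 0.662 and 1.82 ± 0.348 in pif457, while PIF4 was at 30.5 ± 2.28 and 24.7 ± 4.76, so its RNA was not lost. In hy5 6.77% of the genes tested were called, 780 higher and 679 lower. Of the 767 genes higher in the wild type 373 were also called higher in hy5, which is 48.6% of the first list and 47.8% of the second, and 3.62% of all genes were called higher and 3.15% lower there. Of the 354 lower genes 163 were called lower in hy5, 46.0% of the first list and 24% of the second. No gene was called in opposite directions. Among the 302 higher genes that kept their call with each library left out, 260 were called in hy5, and among the 88 lower ones 74. In pif457 49 genes were called, 0.227% of those tested, 6 higher (0.0278%) and 43 lower (0.199%). Of the 767 wild-type higher genes 5 were higher and 2 lower in pif457, and of the 354 lower genes 25 were lower there, which is 58.1% of the genes lower in pif457. A fit of the pif457 libraries of 0 h and 1 h alone called 0 genes, with 1601 at an unadjusted p under 0.05, leaving out single pif457 libraries gave 6 to 23 calls, and DESeq2 called 112, so the pif457 list is short and unstable. Leaving out single hy5 libraries gave 898 to 1984 calls.

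The difference between the responses was tested directly. The pif457 response differed from the wild-type one for 188 genes, 0.872% of those tested, and was the lower of the pair for 182 of them (0.844%) and the higher for 6 (0.0278%). For BHLH87 the log2 fold change was 6.34 ± 0.56 in hy5 and 1.27 ± 0.63 in pif457 (difference from wild type -5.57 ± 0.92, adjusted p = 0.000482). PHYB rose by 1.62 ± 0.15 in hy5 and was at 0.29 ± 0.14 in pif457 (difference -1.29 ± 0.20, adjusted p = 0.000277). For ACS4 these values were 3.68 ± 0.46 and -0.69 ± 0.55 (difference -5.39 ± 0.74, adjusted p = 3.33e-05). The same was seen for APD7, at 0.10 ± 0.22 in pif457 (difference -3.32 ± 0.32, adjusted p = 1.49e-07), for MAKR6, at 0.33 ± 0.26 (difference -3.65 ± 0.38, adjusted p = 3.67e-07), and for RTFL16, at -0.17 ± 0.16 (difference -2.29 ± 0.22, adjusted p = 1.49e-07). ACS8 was at 1.80 ± 1.36 in pif457, and there the difference did not pass (adjusted p = 0.881). The hy5 response differed from the wild-type one for 0 genes with edgeR, with 2409 genes at an unadjusted p under 0.05, and for 38 with DESeq2.

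Falling genes varied in pif457. Some were called lower there too: BIC2 at -1.33 ± 0.18 (adjusted p = 0.000427), TEM1 at -0.89 ± 0.14 (adjusted p = 0.00171), BBX18 at -1.33 ± 0.26 (adjusted p = 0.0207), PDX1L4 at -1.36 ± 0.27 (adjusted p = 0.0207) and the cysteine protease gene AT2G27420, at -1.76 ± 0.26 (adjusted p = 0.000973). AT2G27420 was at 27.4, 14.7 and 28.0 CPM at 0 h and 7.29, 5.12 and 9.57 CPM at 1 h in the wild type (-1.67 ± 0.25, adjusted p = 5.21e-05), and was chosen after its values were seen. Others lay nearer 0 in pif457 than in the wild type: WAVH2 at -0.30 ± 0.11 (difference 0.96 ± 0.15, adjusted p = 0.000241), FLZ13 at -0.20 ± 0.13 (difference 0.87 ± 0.19, adjusted p = 0.0135), LTP7 at -0.54 ± 0.12 (difference 0.77 ± 0.17, adjusted p = 0.0169) and GATA7 at -0.27 ± 0.17 (difference 1.05 ± 0.24, adjusted p = 0.0228). For the former the difference from the wild type did not pass, with log2 differences of 0.26 ± 0.25 for BIC2 and 0.01 ± 0.19 for TEM1, which does not show that the genotypes respond alike.

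**Figure D5:**
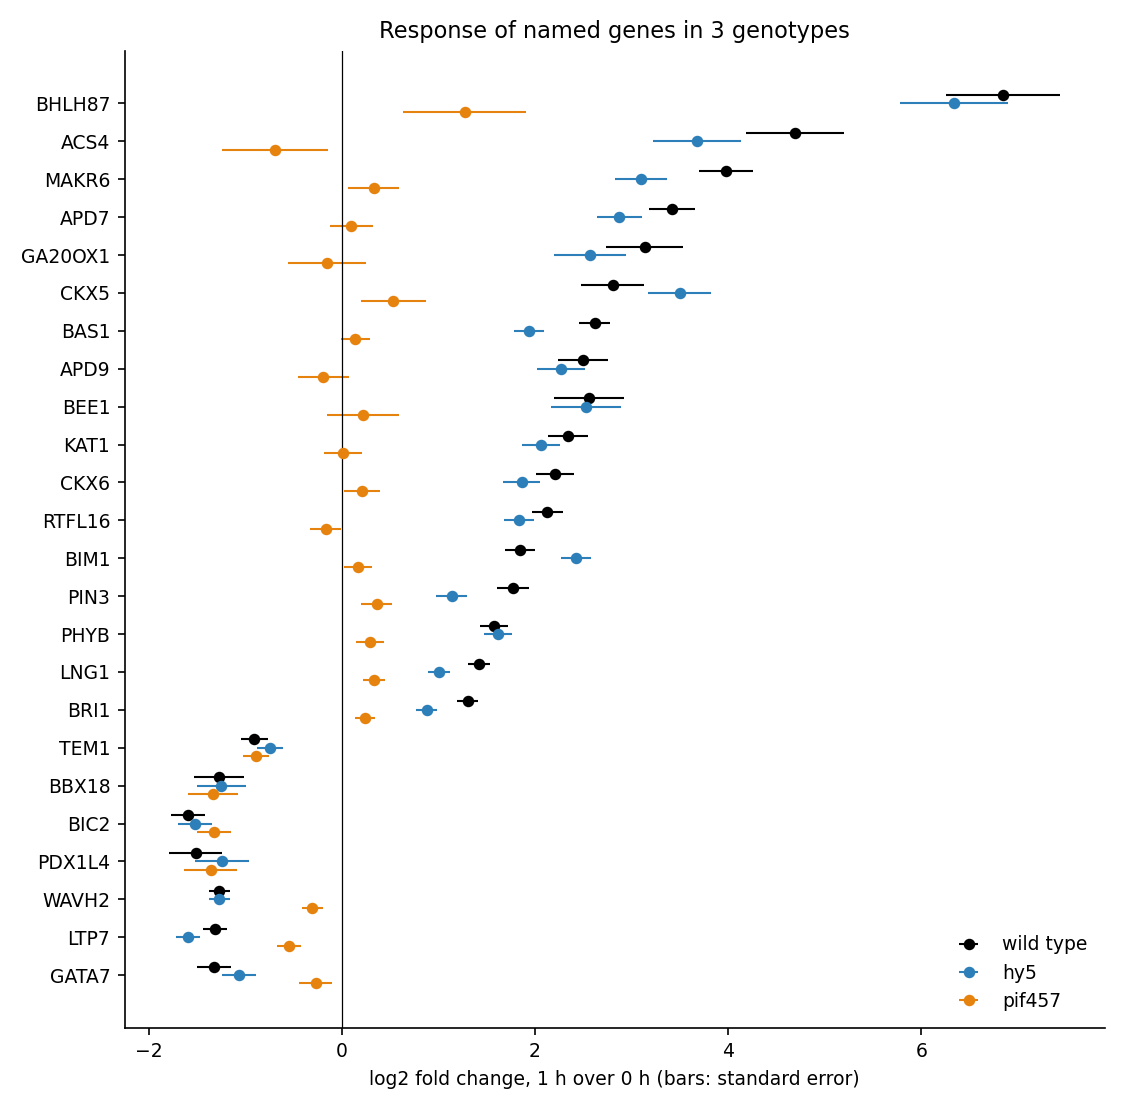
Log2 fold change of 1 h over 0 h with its standard error for 24 named genes in the wild type (black), hy5 (blue) and pif457 (orange), from 3 libraries at each time in each genotype. The riser BHLH87 lies near the wild type in hy5 and at 1.27 in pif457, where the other risers have values of their own. BIC2, TEM1 and BBX18 lie near the same value in all 3 genotypes.

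The 8 h libraries of the wild type were compared with the same 1 h libraries. Genes had been chosen by their 1 h values, so changes back towards the 0 h level are favoured by that choice. Levels at 8 h were not compared with those at 0 h. Compared with 1 h, BHLH87 was lower at 8 h (-1.99 ± 0.44, adjusted p = 0.00382), as were MAKR6 (-2.01 ± 0.26, adjusted p = 4.98e-06), BAS1 (-1.79 ± 0.15, adjusted p = 6.11e-09) and ACS4 (-1.42 ± 0.42, adjusted p = 0.032). PHYB (0.01 ± 0.14, adjusted p = 0.967), FLP1 (0.15 ± 0.37, adjusted p = 0.849), ACS8 (-0.21 ± 0.51, adjusted p = 0.847) and LNG1 (-0.03 ± 0.11, adjusted p = 0.901) did not differ between 1 and 8 h beyond the threshold. TZF5 (2.14 ± 0.32, adjusted p = 4.59e-05), PKS4 (1.69 ± 0.23, adjusted p = 1.15e-05) and COL5 (1.42 ± 0.21, adjusted p = 2.98e-05) were higher still at 8 h. Several fallen genes were higher at 8 h than at 1 h, with TEM1 at 1.64 ± 0.14 (adjusted p = 6.11e-09), AIF1 at 1.33 ± 0.12 (adjusted p = 8.32e-09), BIC2 at 1.02 ± 0.18 (adjusted p = 0.000285) and DVL10 at 2.24 ± 0.54 (adjusted p = 0.00884). GATA7 (0.40 ± 0.17, adjusted p = 0.164) and LTP7 (0.16 ± 0.12, adjusted p = 0.458) did not differ from 1 h beyond the threshold.

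Risen genes lay next to each other more often than their share of all places, though most had no risen neighbour. All 767 called higher genes were used here, of which 302 kept their call with each library left out. In the order of tested genes along the chromosomes of TAIR10.1, 13.4% of the neighbours of a called higher gene were called higher too, against 3.58% of all such places, over 21426 neighbouring pairs of which 103 had both called higher. After removing pairs that overlap or carry the same product name, which takes out most tandem copies, 83 pairs and 12.6% remained (3.71% of all places). By orientation the share was 16.6% in pairs transcribed away from each other and 13.4% on the same strand. It was 5.28% in pairs transcribed towards each other, where 4.24% of all places were called higher and only 7 pairs had both called. For lower genes the share was 1.38% against 1.63%, while over all pairs it was 3.41% against 1.64%. In hy5 the share for lower genes was 7.53% against 3.22%. For higher genes of hy5 the corresponding share was 12.1% against 3.69%, and there convergent pairs, at 12.1% against 4.23%, were not lower than same-strand pairs at 10.9%. Families whose members carry different product names remain among these pairs. These shares describe the annotation order and were not tested.

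Some of these pairs held the strongest rises. BHLH87 and AT3G21320 are transcribed away from each other with 5351 bases between them, and AT3G21320 was at 0.0255, 0 and 0.0886 CPM at 0 h and 3.82, 4.54 and 3.92 CPM at 1 h (6.68 ± 0.68, adjusted p = 1.05e-07), from 4 counts in all to 463. On one side of FLP1 lies ABC1K1 (AT4G31390), a plastid kinase-like gene, which rose at 1.07 ± 0.18, adjusted p = 0.00024. Next to IAA29 lie AT4G32285 (1.23 ± 0.12, adjusted p = 3.15e-08) and, beyond it, AT4G32290 (0.95 ± 0.08, adjusted p = 1.21e-09), and beside ATHB2 lie AT4G16770 (1.69 ± 0.20, adjusted p = 1.09e-06) and AT4G16790 (0.92 ± 0.10, adjusted p = 2.32e-07). Between SAUR20 (AT5G18020) and SAUR21 (AT5G18030) the annotation places AT5G02865, a long noncoding RNA on the minus strand. It was at 0.0764, 0.055 and 0.0886 CPM at 0 h and 8.23, 6.45 and 5.29 CPM at 1 h, with 8 counts in all at 0 h and 741 at 1 h (6.45 ± 0.68, adjusted p = 1.05e-07), and rose together with SAUR20 (3.43 ± 0.23, adjusted p = 2.67e-11) and SAUR21 (4.12 ± 0.28, adjusted p = 2.18e-11). SAUR20 and SAUR21 are closely similar copies, so reads shared between them make their separate values uncertain. Whether any RNA here is read-through of a neighbour was not tested. BHLH87 aside, the neighbours in this paragraph were chosen after their values were seen.

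The loci of some genes named above overlap another annotated gene in TAIR10.1. They include PHYE, PKS1, PIF7, PIF1, PIF6, BIM2, EBF2, CPD, UGT73C6, BEH4, BZR1, GASA6 and CKX6. Others are CKX5, APD7, EXLA1, LNG1, LNG2, SMZ, BRC2, CDF5, CLE16, ERF018, AT3G21320 and ABC1K1. The library kit marked the strand, but whether the counting used it is not given in the sources used here, so reads of such genes and of their partners cannot be told apart with certainty.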

How the data were processed

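Whole-seedling mRNA of 36 libraries, 12 groups of genotype and time with 3 replicates each, was sequenced after stranded library preparation, per the labels' protocols. The authors deposited expected counts per gene, and the submitters' processing notes name STAR 2.5.3a, RSEM 1.3.0 and the build TAIR10. The expected counts were rounded to whole numbers, and genes with few counts were left out with filterByExpr (minimum count 10, minimum total 15), which left 21562 of 32833. In R 4.3.3, edgeR 4.0.16 fitted all 12 groups with TMM scaling and its quasi-likelihood test, and DESeq2 1.42.0 served as an alternative, as did other scalings, filters, sets of libraries and a replicate block. The scripts were tested on simulated data. Of the 32833 identifiers, 32548 matched the RefSeq annotation of TAIR10.1, which also gave symbols, products, neighbours and sequence. Coordinates come from that annotation only, and the expected counts carry none.

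Wild-type depth was 31849621 to 43678118 counts per library, and intervals cover counting error only. Samples were grouped by the genotype and time in the labels. Replicate numbers were not used as pairs: the correlations of deviations from the group means for numbers 1, 2 and 3 were 0.11, -0.01 and -0.51 between 0 h and 1 h. No pair of replicates agreed within sampling noise (lowest chi-square per degree of freedom 8.45). The genes and lists were chosen with earlier results of these data known. Named genes were called genes that kept their call with each of the 6 libraries left out, with log2 CPM averaging 1 or more, no overlap between times and a symbol. They were the 15 largest rises and falls outside the shade, auxin and SAUR lists, up to 4 called members of each list by adjusted p and up to 3 of each of those usual lists. Called members of a list and key members that did not pass could be added with their values, as could 3 identifiers without a symbol in each direction. Members of families noticed later are stated as chosen after their values were seen. From the 15 largest falls and rises a selection is named. Genes of the hy5 pif457 mutant and the wild type at 8 h against 0 h were not analysed here.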

Additional observations from a re-analysis of the deposited data

Results flagged for a closer look

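The response of pif457 at 1 h differed from that of the wild type, by a test of the difference itself over all genes, for 188 genes. Among those named, the log2 difference was -5.57 for BHLH87, -5.39 for ACS4, -3.65 for MAKR6, -3.32 for APD7, -2.29 for RTFL16 and -1.29 for PHYB, genes that rose more in the wild type. It was 0.96 for WAVH2, 1.05 for GATA7, 0.87 for FLZ13 and 0.77 for LTP7, genes that fell more in the wild type. Each group held 3 libraries, too few for single libraries to be examined as outliers.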

How the results depend on the processing

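The counts of wild-type calls, 767 higher and 354 lower, depended on which libraries were fitted. They were 277 and 52 with the compared groups only, 403 and 180 with the wild-type libraries only, and the higher count was 468 without the libraries rich in rRNA, none of which is a wild-type library. Leaving out single libraries gave 385 to 1635 higher and 118 to 849 lower genes, and DESeq2 called 735 lower. Leaving out both wild-type libraries numbered 2, chosen after seeing the data, gave 728 lower genes. The pif457 count of 49 was 28 without a filter, 0 with the compared groups only, 112 with DESeq2 and 6 to 23 with single libraries left out. Single libraries left out moved the hy5 count of 1459 to 898 to 1984. The difference between hy5 and the wild type, 0 genes, was 38 with DESeq2 and 0 to 1 with single libraries left out.

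Same-numbered libraries did not deviate together, so the replicate block is no paired analysis: it gave 600 higher and 248 lower genes in the wild type, 1164 calls in hy5, 28 in pif457 and 171 for the difference between pif457 and the wild type. No library matched its own number best.

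For 140 of the genes named with a wild-type change, no called change reversed its direction. Of 1679 values, 1619 kept their side of the threshold, 59 lost their call and 1 gained one. Of the 59 lost calls, 27 came from the fit of the compared groups only. The causes were not tested. Depth limits genes with few counts at 0 h, such as FLP1, BRC2 and RTFL18, whose size of change is loosely known.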
